A study of Mus musculus with 3 samples.

Results

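The members were the beta cells of the 2 mutant libraries of the series, taken 1 week and 5 weeks after inactivation of *Taf4*. A cell barcode was kept when it held at least 3000 unique molecular identifiers (UMIs, each standing for 1 captured RNA molecule), when *Gcg* made up under 2% and *Sst* under 1% of its UMIs, and when *Ins2* made up at least 5% of them at 1 week, with mitochondrial transcripts under 15%, or at least 20% at 5 weeks. This left 562 of 2295 barcodes at 1 week and 3401 of 11229 at 5 weeks, together 3963 of 13524, and 25524 barcodes in the whole series. The cells were thus chosen by their measured *Ins2*, *Gcg* and *Sst*, the transcripts of the second insulin gene, of glucagon and of somatostatin, and these 3 are not results. At 1 week the cell nearest to the *Ins2* threshold held 5.00% and the nearest one left out 4.93%, and at 5 weeks the corresponding shares were 20.7% and 14.5%. The middle values of the *Ins2* share were 28.3% at 1 week and 59.8% at 5 weeks, values that the gates set in part.

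The mutants (Taf4b-/-, the letter b standing for beta cells) were male C57/Bl6 mice carrying an *Ins1*::Cre-ERT2 driver and Taf4 lox/lox alleles, injected with tamoxifen on 3 days as adults of 11 to 13 weeks. Cre-ERT2 is a recombinase that tamoxifen activates, and the insulin promoter restricts its production to cells that make insulin. Each mutant library came from 300 islets pooled from 2 mice, and the control (WT) library, with intact *Taf4*, from 300 islets of 1 mouse. Islets were dissociated, sorted for live cells and captured with the 10X Genomics Chromium 3′ method. Each condition had a single library, so conditions were not tested against each other, and time after inactivation, animals, dissociation and library cannot be told apart. Intervals in parentheses are exact 95% intervals and cover counting error only.

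Taf4 is a subunit of TFIID, the general factor that recognises the core promoter and helps to load RNA polymerase II. Beta cells of the pancreatic islet sense glucose through uptake and phosphorylation, make large amounts of proinsulin in the endoplasmic reticulum (ER) and release insulin from granules. When their ER or amino acid supply is strained, phosphorylation of the translation factor eIF2alpha sets off the integrated stress response, in which *Atf4* and *Ddit3* drive genes of amino acid supply and cell death, while the unfolded protein response raises ER chaperones and the machinery of ER-associated degradation. Immediate early genes such as *Fos* and the heat shock genes respond within minutes to stimulation, to heat and to tissue dissociation.

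Several properties of the libraries bear on what follows. The selected 1-week cells held a median of 24754.5 UMIs and 4728.5 detected genes, against 5536 UMIs and 1065 genes at 5 weeks and 3473 UMIs and 723 genes in 1040 WT cells chosen with the 5-week gate. No 5-week barcode exceeded 1999 detected genes and none of WT exceeded 1489, whereas 1-week barcodes reached 5986. The highest mitochondrial share of any barcode was 14.9% in WT, 14.9% at 5 weeks and 44.8% at 1 week. By the study's methods, cells were kept for its analysis within limits on detected genes and with under 15% mitochondrial reads. Barcodes rich in detected genes were thus present in the 1-week table only. Levels are counts per 1000000 UMIs (CPM) summed over the selected cells, with 7 hormone genes and mitochondrial transcripts left out of the total. Hormones took 42.8% of UMIs at 1 week, 68.4% at 5 weeks and 69.4% in WT. The totals behind the levels were 8078751 UMIs at 1 week, 6324426 at 5 weeks and 1050487 in WT, so 1 UMI stood for 0.124, 0.158 and 0.952 CPM. The targeted gene *Taf4* was at 18.1 CPM (10.9 to 28.2) in WT, 14.1 CPM (11.6 to 17.0) at 1 week and 12.2 CPM (9.61 to 15.2) at 5 weeks. Which exons were removed is not given in the sources used here, and a 3′ tag outside them checks nothing. The WT library went against its label: it was described as male, yet *Xist* stood at 2130.4 CPM and *Ddx3y* had no UMI, whereas both mutant libraries held *Ddx3y* (111 CPM and 88.5 CPM). Ratios of 5 weeks over 1 week do not use that library. Between them the mutant libraries shared 5 barcodes, 1 of them selected in both.

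RNA of other pancreatic cells differed between the libraries and is given here for every list that was checked. The 14 acinar markers summed to 32.8 CPM at 1 week, 1640.5 CPM at 5 weeks and 13660.3 CPM in WT, and all 11 of them that were abundant enough to be ranked were at least 2-fold higher at 5 weeks. They include *Prss2* (2.48 CPM at 1 week and 230.1 CPM at 5 weeks), *Try4* (3.59 CPM at 1 week and 259 CPM at 5 weeks), *Try5* (1.49 CPM at 1 week and 206 CPM at 5 weeks) and *Ctrb1* (11.3 CPM at 1 week and 376 CPM at 5 weeks), digestive enzyme precursors of exocrine cells that are among the 12 highest ratios below. *Try4* and *Try5* are near-identical copies whose reads cannot be assigned with certainty. The 10 alpha markers, *Gcg* included, summed to 994 CPM at 1 week and 6036 CPM at 5 weeks. The 7 delta markers, *Sst* included, summed to 181 CPM and 1863 CPM, and the 2 PP markers to 286 CPM and 2441 CPM. *Gcg* and *Sst* were gated, so the alpha and delta sums depend in part on the gates. Of all UMIs of the selected cells *Gcg* made up 0.0233% at 1 week and 0.100% at 5 weeks. *Sst* made up 0.00130% and 0.0463%. Ductal markers summed to 467 CPM and 213 CPM. Nearly all of that sum was 1 gene, *Krt7*, at 449.7 CPM and 197 CPM, which is also counted among the adhesion genes below. Macrophage markers summed to 27.5 CPM and 34.8 CPM, endothelial markers to 10.0 CPM and 44.4 CPM, and T or B cell markers to 13 CPM and 4.74 CPM. Mesenchymal markers summed to 0.371 CPM and 9.80 CPM, and red cell markers to 0 CPM and 62.6 CPM. The part of such RNA in the results was not tested.

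The promoters of a few genes that the results turn on are printed first, since TFIID acts there. They are the 250 bases before the start site, 5′ to 3′ on the gene's strand, from RefSeq on GRCm38.p6 (mm10). In the first 4, genes of the integrated stress response, capitals mark a match to TGATGNAA on either strand, the core of the composite element bound by C/EBP and ATF family proteins. In the last 2, genes that were high at 5 weeks, capitals mark TATAAA on the gene's strand, a form of the TATA box. They lie at chr7:126625471-126625720 (*Nupr1*, minus strand), chr6:7693210-7693459 (*Asns*, minus strand), chr1:191183334-191183583 (*Atf3*, minus strand), chr2:119350992-119351241 (*Chac1*, plus strand), chr12:85473640-85473889 (*Fos*, plus strand) and chr13:51846425-51846674 (*Gadd45g*, plus strand).
Nupr1: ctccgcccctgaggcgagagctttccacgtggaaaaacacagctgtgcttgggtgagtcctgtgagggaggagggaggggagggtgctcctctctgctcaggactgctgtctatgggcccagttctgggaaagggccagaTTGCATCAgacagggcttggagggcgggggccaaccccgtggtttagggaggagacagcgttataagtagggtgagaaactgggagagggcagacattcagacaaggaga
Asns: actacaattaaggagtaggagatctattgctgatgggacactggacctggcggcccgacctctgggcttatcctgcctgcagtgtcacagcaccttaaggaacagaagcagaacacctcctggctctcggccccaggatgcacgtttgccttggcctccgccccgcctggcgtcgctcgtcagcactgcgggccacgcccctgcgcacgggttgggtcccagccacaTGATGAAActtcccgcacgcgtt
Atf3: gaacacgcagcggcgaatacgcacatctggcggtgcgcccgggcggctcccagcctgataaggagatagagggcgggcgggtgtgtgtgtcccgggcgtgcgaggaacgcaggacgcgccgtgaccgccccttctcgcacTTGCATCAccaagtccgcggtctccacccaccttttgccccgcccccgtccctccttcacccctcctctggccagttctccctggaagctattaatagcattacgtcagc
Chac1: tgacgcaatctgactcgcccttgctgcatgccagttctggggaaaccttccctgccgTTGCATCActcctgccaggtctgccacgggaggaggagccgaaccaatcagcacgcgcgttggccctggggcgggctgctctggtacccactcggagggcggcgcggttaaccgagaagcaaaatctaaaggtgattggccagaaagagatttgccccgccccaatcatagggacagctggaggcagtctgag
Fos: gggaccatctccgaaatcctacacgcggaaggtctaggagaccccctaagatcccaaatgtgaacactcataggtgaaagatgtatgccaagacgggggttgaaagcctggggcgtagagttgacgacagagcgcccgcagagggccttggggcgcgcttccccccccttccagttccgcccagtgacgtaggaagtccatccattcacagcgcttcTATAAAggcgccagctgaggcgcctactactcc
Gadd45g: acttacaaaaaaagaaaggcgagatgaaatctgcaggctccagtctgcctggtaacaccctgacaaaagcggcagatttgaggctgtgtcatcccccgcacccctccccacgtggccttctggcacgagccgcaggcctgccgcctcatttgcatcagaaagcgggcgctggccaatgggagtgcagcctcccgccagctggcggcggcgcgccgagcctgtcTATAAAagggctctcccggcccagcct

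In these windows, extended by 50 bases past the start, TGATGNAA was found in 7 of the 20 integrated stress response genes with a RefSeq promoter (35%), against 2.09% of the 5350 ranked genes with one and 4.06% of all 27025 promoters. The 7 did not share a direction: *Nupr1*, *Trib3*, *Asns* and *Aars* were lower at 5 weeks by at least 2-fold, *Chac1* and *Gars* lay within 2-fold and *Atf3* was higher. TATAAA was found in 32 of 278 promoters (11.5%) of genes at least 2-fold higher at 5 weeks, in 20 of 390 (5.13%) of genes at least 2-fold lower, in 3.98% of ranked genes and in 8.88% of all promoters. It was also found in 4 of the 20 integrated stress response promoters (20%), a list that was mostly lower at 5 weeks. With the 14 acinar markers left out it was found in 28 of 270 (10.4%) of the higher genes, and in 12 of these 28 it began 20 to 35 bases before the start. The 28 still hold *Cpb1*, *Reg1* and *2210010C04Rik*, which acinar cells also make and which are not among the 14. They also include *Fos*, *Gadd45g*, *Ppia* and the peptide hormone precursor *Pomc*, in which TATAAA began within those 20 to 35 bases. In *Junb*, *Srsf3*, *Gadd45b* and *Tob1*, also among the 28, it began outside them, at 0, -18, -46 and -47 from the start. TGANTCA, the AP-1 element on both strands, was in none of the 14 immediate early gene promoters and in 4.07% of ranked genes, and GGGCGG, the GC box on both strands, was in 64.7% of the higher genes, 67.2% of the lower genes and 69.0% of ranked genes. GGGCGG was in 78.6% of the immediate early and 90.9% of the heat shock promoters.

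The comparison of 5 weeks with 1 week asked which changes of mutant beta cells belong to the first week and which come later. The 2 mutant tables had 14677 genes in common. Ranking took genes listed in any table, hormones and mitochondrial transcripts left out, and a gene missing from a table counted as 0. Of these, 6699 had a mean level of at least 20 CPM over the 2 libraries and were ranked. At 5 weeks 357 of them (5.33%) were at least 2-fold higher and 504 (7.52%) at least 2-fold lower, and the interval lay wholly past 2-fold for 252 and 289. A 4-fold difference was passed by 83 higher and 49 lower genes, and the median log2 ratio of ranked genes was -0.16. With the ratios centred on that median the counts were 499 higher and 336 lower, which turns the balance of the directions. In cells of 3000 to 10000 UMIs they were 832 and 952, and with hormones and mitochondrial transcripts in the totals 47 and 2072.

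The 12 lowest ratios among genes averaging at least 100 CPM were led by *Nupr1*, a small stress-induced chromatin protein, at 599.7 CPM in WT, 3237 CPM at 1 week and 145 CPM at 5 weeks. Its log2 ratio of 5 weeks over 1 week was -4.48 (-4.57 to -4.38). *Id3* and *Id2*, inhibitors of basic helix-loop-helix factors, stood at 238 and 219 CPM at 1 week and at 12.3 and 37.8 CPM at 5 weeks, with 3.81 and 23.8 CPM in WT. The glutathione transferases *Gstm1* (55.2 CPM in WT, 282 CPM at 1 week and 15.2 CPM at 5 weeks) and *Gstp1* (22.8 CPM in WT, 173 CPM at 1 week and 28.3 CPM at 5 weeks) were thus high at 1 week alone. *Gnai2*, the alpha subunit of an inhibitory G protein, stood at 403 CPM in WT, 1998 CPM at 1 week and 388 CPM at 5 weeks. Its log2 ratio was -2.36 (-2.43 to -2.30). *Fam151a* differed from the others in its WT level: it held 168 CPM in WT, 183 CPM at 1 week and 18.3 CPM at 5 weeks, so it was near WT at 1 week and low at 5 weeks. The remaining members of the 12, *Mt2*, *Ddit3*, *Atf5*, *Gtpbp2* and *Hspa9*, the last a mitochondrial chaperone, had log2 ratios of -3.02, -2.59, -2.38, -2.36 and -2.05.

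The 12 highest ratios were those of immediate early and heat shock genes, the 4 acinar genes named above, and *Fkbp11*. *Fosb* and *Fos*, which pair with Jun proteins as AP-1, were both low at 1 week. *Fosb* stood at 389 CPM in WT, 3.09 CPM at 1 week and 901 CPM at 5 weeks. *Fos* stood at 763 CPM in WT, 24.3 CPM at 1 week and 4365 CPM at 5 weeks. *Fkbp11*, a prolyl isomerase of the secretory pathway, stood at 598 CPM in WT, 12 CPM at 1 week and 301 CPM at 5 weeks. Its log2 ratio was 4.65 (4.35 to 4.96). It was low in every band of the 1-week cells, at 8.36 (5.41 to 12.3) CPM where *Ins2* was 5 to 20% of UMIs, 7.42 (4.47 to 11.6) CPM at 20 to 40% and 21 (15.7 to 27.4) CPM at 40% or more.

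**Figure D1:**
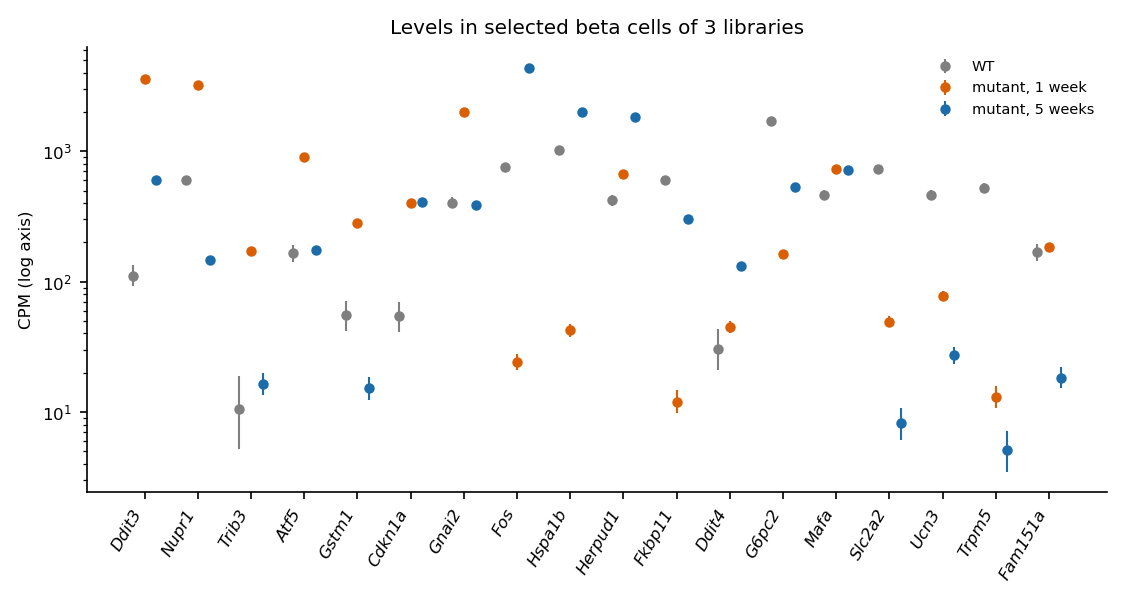
Levels in CPM on a log axis (points, with exact Poisson 95% intervals as bars) of 18 genes in the selected beta cells of WT (grey), the mutant at 1 week (orange) and the mutant at 5 weeks (blue). *Ddit3*, *Nupr1*, *Trib3*, *Atf5*, *Gstm1* and *Gnai2* are highest at 1 week, *Fos* and *Hspa1b* are lowest there, and *Slc2a2*, *Ucn3* and *Trpm5* are highest in WT and lowest at 5 weeks.

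Genes of the integrated stress response were mostly lower at 5 weeks than at 1 week. Of 33 listed genes 25 were ranked, of which 11 were at least 2-fold lower and 2 higher, with a median log2 ratio of -0.98 beside -0.16 over all ranked genes. *Ddit3* (CHOP), a pro-apoptotic transcription factor on chromosome 10 from 127290793 to 127296291, stood at 111 CPM in WT, 3614 CPM at 1 week and 600.2 CPM at 5 weeks. It was therefore 2.43 log2 units above WT at 5 weeks and 5.02 units above WT at 1 week. *Trib3*, a pseudokinase that Ddit3 induces, stood at 10.5 CPM in WT, 171 CPM at 1 week and 16.4 CPM at 5 weeks, so its 5-week level was far nearer to WT than its 1-week level. *Atf5*, a factor of the same family as Atf4, stood at 165 CPM in WT, 906 CPM at 1 week and 174 CPM at 5 weeks, and its WT and 5-week levels lay side by side. *Sesn2*, a stress-inducible regulator of mTORC1, stood at 107 CPM at 1 week and 29.6 CPM at 5 weeks. The amino acid carrier *Slc3a2* stood at 558 CPM at 1 week and 155 CPM at 5 weeks. The aminoacyl-tRNA synthetases *Aars* and *Sars*, the asparagine synthetase *Asns*, *Cebpb* and *Vldlr* completed the 11, with log2 ratios of -1.41, -1.35, -1.14, -1.57 and -1.22. *Asns* lay within 2-fold when both libraries were limited to cells of 3000 to 10000 UMIs (-0.24), when each cell was thinned to 3000 UMIs (-0.92) and when the CPM of single cells was averaged (-0.92).

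Not every branch of that response was lower. *Atf4* itself stood at 231 CPM in WT, 537 CPM at 1 week and 452 CPM at 5 weeks. *Ppp1r15a* (GADD34), which restores translation in a feedback loop, stood at 51.4 CPM in WT, 180.2 CPM at 1 week and 183 CPM at 5 weeks. *Ddit4*, an inhibitor of mTORC1, was higher at 5 weeks (30.5 CPM in WT, 45.2 CPM at 1 week and 132 CPM at 5 weeks). So was *Atf3* (56.2 CPM in WT, 32.1 CPM at 1 week and 237 CPM at 5 weeks), a factor that is also an immediate early gene. *Chac1*, a glutathione-degrading enzyme, stayed above WT at both times (30.5 CPM in WT, 153 CPM at 1 week and 99.6 CPM at 5 weeks).

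Within the 1-week library these levels varied with the *Ins2* share, which was also the gate. The 213 cells with 5 to 20% *Ins2* had a median of 18765 UMIs, the 163 cells with 20 to 40% had 27367 and the 186 cells with 40% or more had 39583.5. *Ddit3* stood at 4317 (4243 to 4392), 4490.5 (4409 to 4573) and 1894 (1841 to 1949) CPM in these bands, and in the 5-week cells at 713 (674 to 755) CPM below 5000 UMIs and 559 (537 to 581) CPM above. Every 1-week band was above both 5-week bands, and with *Ins2* at 40% or more in both libraries the log2 ratio was -1.66, a setting chosen after the data were seen. *Nupr1* stood at 3417, 4599 and 1647 CPM against 173 and 135 CPM, and *Gstm1* at 338, 299.9 and 196 CPM against 14.8 and 15.3 CPM. *Cdkn1a*, the cell cycle inhibitor p21, did not vary in this way, at 415, 379 and 408 CPM, with 435 and 395 CPM at 5 weeks. In the 85 1-week cells of 3000 to 10000 UMIs, those nearest in depth to the 5-week cells, *Ddit3* was at 2543 (2378 to 2718) CPM and *Nupr1* at 1821 (1681 to 1969) CPM.

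Genes of the antioxidant and metal response were lower at 5 weeks in the main. Of 15 ranked genes 8 were at least 2-fold lower and 1 higher, with a median log2 ratio of -1.30. The metallothioneins *Mt2* and *Mt1*, which bind zinc and copper, were highest at 1 week. *Mt2* stood at 210.4 CPM in WT, 4055 CPM at 1 week and 500.3 CPM at 5 weeks. *Mt1* stood at 2168 CPM in WT, 11518 CPM at 1 week and 3164 CPM at 5 weeks. *Ftl1*, the light chain of ferritin, stood at 4112 CPM in WT, 16584 CPM at 1 week and 4402 CPM at 5 weeks, and has near-identical copies. The glutathione synthesis subunits *Gclc* and *Gclm* had log2 ratios of -1.30 and -1.49, *Txnrd1*, thioredoxin reductase, -1.79, *Srxn1*, sulfiredoxin, -1.86, and *Hmox1*, haem oxygenase, -1.52. With *Ins2* at 40% or more in both libraries *Hmox1* (-0.32), *Srxn1* (-0.89) and *Gclc* (-0.95) lay within 2-fold. *Prdx4*, an ER peroxiredoxin that oxidises folding proteins, was the 1 higher gene (63.8 CPM in WT, 28.3 CPM at 1 week and 64.5 CPM at 5 weeks).

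Among p53 targets 6 of 12 ranked genes were at least 2-fold lower and none higher, with a median of -0.98. *Phlda3*, a repressor of Akt, stood at 5.71 CPM in WT, 117 CPM at 1 week and 16 CPM at 5 weeks. *Ccng1*, cyclin G1, stood at 62.8 CPM in WT, 298 CPM at 1 week and 72.7 CPM at 5 weeks. *Mdm2*, the ligase that degrades p53, stood at 41.9 CPM in WT, 116 CPM at 1 week and 50.8 CPM at 5 weeks. *Trp53inp1*, *Aen* and *Zmat3* had log2 ratios of -1.62, -1.28 and -1.08. The other 6 lay within 2-fold, among them *Cdkn1a*, at 54.3 CPM in WT, 402 CPM at 1 week and 406 CPM at 5 weeks, and *Bax*, a pore-forming apoptosis protein, at 345 CPM in WT, 314 CPM at 1 week and 259 CPM at 5 weeks. *Trp53* itself was at 37.1 CPM in WT, 37.3 CPM at 1 week and 34.9 CPM at 5 weeks. *Gadd45a*, another growth arrest gene and a leader of the time classes below, stood at 16.2 CPM in WT, 153 CPM at 1 week and 29.7 CPM at 5 weeks.

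The immediate early genes went the other way. Of 16 ranked genes 15 were at least 2-fold higher at 5 weeks and none lower, with a median log2 ratio of 4.02. *Jun* stood at 671 CPM in WT, 141 CPM at 1 week and 2037 CPM at 5 weeks. *Junb* stood at 172 CPM in WT, 93.2 CPM at 1 week and 1009 CPM at 5 weeks. *Egr1*, a zinc finger factor, stood at 514 CPM in WT, 30.3 CPM at 1 week and 1806 CPM at 5 weeks. For these and for *Fos* the 1-week library was the low one and the other 2 were high. *Dusp1*, a phosphatase of MAP kinases, stood at 188 CPM in WT, 17.5 CPM at 1 week and 369 CPM at 5 weeks. *Nr4a1*, an orphan nuclear receptor, stood at 54.3 CPM in WT, 0.866 CPM at 1 week and 78.4 CPM at 5 weeks. *Klf2*, a zinc finger factor, had 2 UMIs at 1 week, and its log2 ratio of 7.82 (5.96 to 10.88) rests on them. The heat shock list held the same pattern, with 11 of 14 ranked genes at least 2-fold higher, none lower and a median of 2.39. *Hspb1*, a small heat shock protein, stood at 491 CPM in WT, 6.68 CPM at 1 week and 892 CPM at 5 weeks. *Dnajb1*, a co-chaperone of Hsp70, stood at 659.7 CPM in WT, 27.9 CPM at 1 week and 2403 CPM at 5 weeks. *Hspa1a* and *Hspa1b*, near-identical genes of inducible Hsp70, share reads that cannot be assigned with certainty. *Hspa1a* stood at 803 CPM in WT, 77.2 CPM at 1 week and 2786 CPM at 5 weeks. *Hspa1b* stood at 1030.0 CPM in WT, 42.2 CPM at 1 week and 1990.2 CPM at 5 weeks. *Hspa8*, the constitutive form, differed less (1445 CPM in WT, 1668 CPM at 1 week and 4731 CPM at 5 weeks), and *Hspa8* and *Hsp90ab1* lay within 2-fold in cells of 3000 to 10000 UMIs (0.85 and 0.82). So did *Hsph1* (0.44, beside 3.12 in all cells).

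The same 2 lists were also higher at 5 weeks in alpha cells of the same libraries. This comparison was chosen after the data were seen. Alpha cells were taken as barcodes of at least 1000 UMIs with *Gcg* at 10% or more, *Ins2* under 5%, *Sst* under 1% and mitochondrial transcripts under 15%, which gave 173 cells at 1 week (median 21515 UMIs) and 2293 at 5 weeks (median 1914 UMIs). The gate does not show whether a cell had recombined *Taf4*. Their median log2 ratio was 3.74 for immediate early genes and 2.76 for heat shock genes. *Fos* stood at 3.95 CPM at 1 week and 2059 CPM at 5 weeks in alpha cells, and *Hspa1a* at 4.74 CPM at 1 week and 5587 CPM at 5 weeks.

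Genes of ER chaperones and ER-associated degradation were higher at 5 weeks or near even. All 34 listed genes were ranked, of which 13 were at least 2-fold higher and none lower, with a median log2 ratio of 0.69. With hormones and mitochondrial transcripts counted in the totals that median was -0.23, since every ratio is then lower. *Manf*, a secreted ER stress factor, stood at 1952 CPM in WT, 493 CPM at 1 week and 2037 CPM at 5 weeks. *Selenok*, a membrane protein of ER-associated degradation, stood at 2662 CPM in WT, 656 CPM at 1 week and 2391 CPM at 5 weeks. *Sec61b*, a subunit of the translocon, stood at 2944 CPM in WT, 763 CPM at 1 week and 2329 CPM at 5 weeks. *Ostc*, a subunit of oligosaccharyltransferase, stood at 1157 CPM in WT, 326 CPM at 1 week and 1292 CPM at 5 weeks. The derlin *Derl3* had the highest ratio of the list, 3.13 (2.62 to 3.67). For all 5 the 1-week level was the lowest of the 3 libraries and the 5-week level came within 1 log2 unit of WT. *Herpud1*, a scaffold of the degradation complex, followed another course, at 421 CPM in WT, 667 CPM at 1 week and 1819.6 CPM at 5 weeks. It was higher in both 5-week bands (2046 and 1737 CPM) than in any 1-week *Ins2* band (639 to 711 CPM). The chaperones *Sdf2l1* and *Hsp90b1*, the disulfide isomerases *Pdia6* and *P4hb*, the ligase *Syvn1*, *Edem2* and *Selenos* had log2 ratios of 1.76, 1.17, 1.04, 1.02, 1.06, 1.22 and 1.52. *Ern1* (IRE1), a sensor of the response, had the lowest ratio of the list, -0.83, and *Xbp1*, the factor that Ern1 splices, stood at 315 CPM in WT, 255 CPM at 1 week and 268 CPM at 5 weeks. Spliced and unspliced *Xbp1* are not separated by these counts.

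In alpha cells the ER list had a median log2 ratio of 0.49, with 8 of 30 genes at least 2-fold higher and 2 lower. Of all 5738 ranked genes with at least 20 CPM in alpha cells, 555 were at least 2-fold higher there and 603 lower. *Herpud1* stood there at 309 CPM at 1 week and 422 CPM at 5 weeks. Its log2 ratio was 0.45 (0.31 to 0.59) in alpha cells and 1.45 (1.40 to 1.49) in beta cells. The integrated stress response was mostly lower in alpha cells too, with 19 of 24 genes at least 2-fold lower, 2 higher and a median of -1.72. *Ddit3* stood there at 1181 CPM at 1 week and 193 CPM at 5 weeks, and its log2 ratio was -2.61 beside -2.59 in beta cells.

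**Figure D2:**
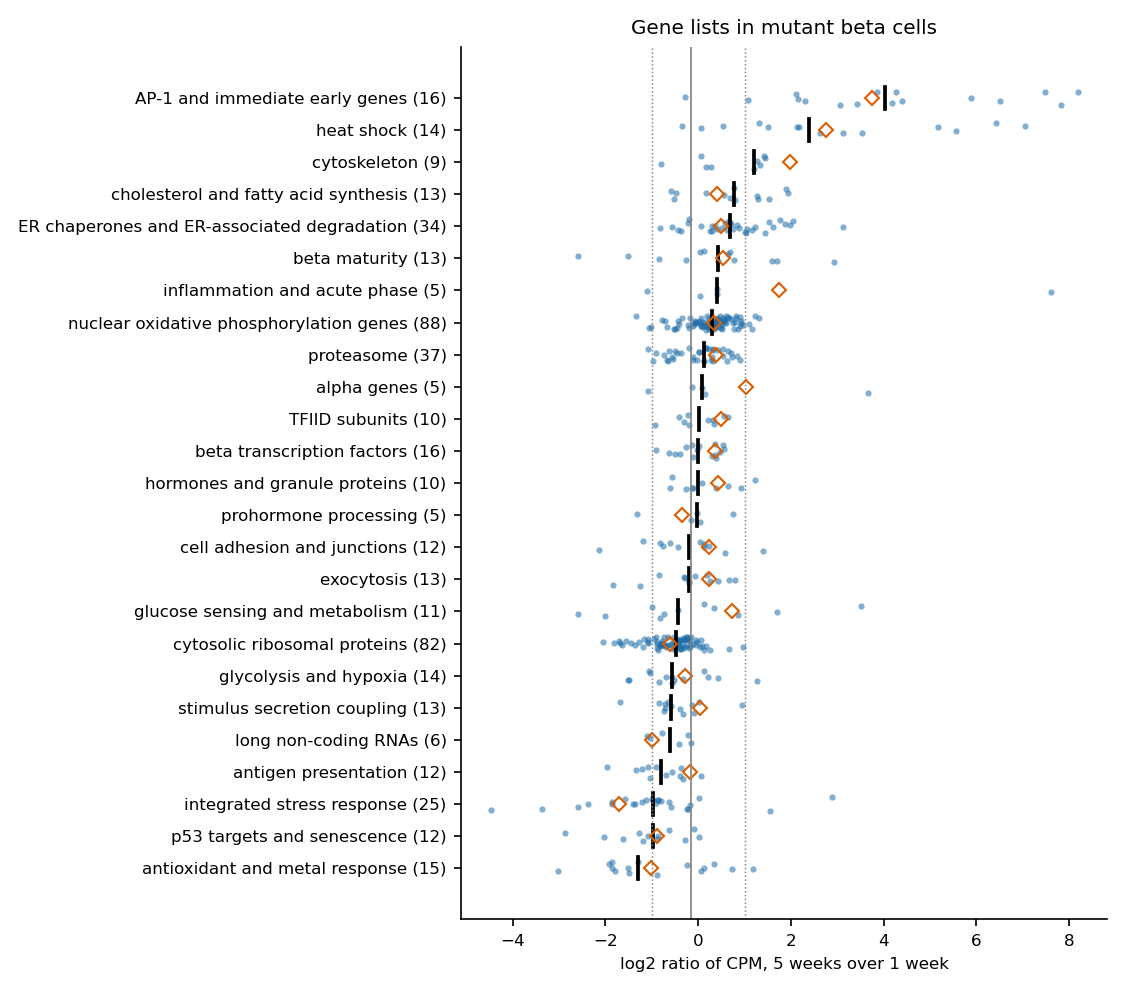
Log2 ratios of CPM, 5 weeks over 1 week, of the ranked members of each gene list in mutant beta cells (blue points, their number in parentheses), with the list's median (black bar) and its median in alpha cells of the same libraries (open orange diamond). The solid grey line is the median of all ranked genes and the dotted lines mark 2-fold; immediate early genes lie farthest to the right (median 4.02) and antioxidant genes farthest to the left (-1.30).

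Ranked transcription factors of beta cells did not pass 2-fold between the 2 times. Of 21 listed genes 16 were ranked, with 0 higher, 0 lower and a median log2 ratio of 0.00. *Mafa*, an activator of insulin transcription, stood at 461 CPM in WT, 733 CPM at 1 week and 725 CPM at 5 weeks. *Pdx1*, a homeodomain factor of beta cells, stood at 114 CPM in WT, 216 CPM at 1 week and 277 CPM at 5 weeks. *Nkx6-1* stood at 402 CPM in WT, 423 CPM at 1 week and 584 CPM at 5 weeks. In the sums over all selected cells *Mafa* and *Pdx1* were above WT at both times. *Nkx6-1* was near WT at 1 week (log2 ratio 0.08) and above it at 5 weeks (0.54). The lowest ratio of the 16 was that of *Foxo1*, at 40.9 CPM in WT, 55.5 CPM at 1 week and 29.6 CPM at 5 weeks. *Myt1*, a listed gene too low to be ranked, stood at 36.2 CPM in WT, 17.3 CPM at 1 week and 6.17 CPM at 5 weeks. Its log2 ratio of 5 weeks over 1 week was -1.49 (-2.04 to -0.97). *Neurod1* stood at 279.9 CPM in WT, 157 CPM at 1 week and 227 CPM at 5 weeks. The 1-week library was uneven: *Mafa* stood at 286 (268 to 306), 430.0 (405 to 456) and 1567 (1518 to 1616) CPM in its 3 bands of increasing *Ins2* and at 717 and 728 CPM in the 5-week bands. *Pdx1* stood at 138, 158 and 366 CPM against 299 and 269 CPM. In both, the 5-week cells lay between the lowest and the highest band at 1 week. *Mafa* passed its WT level of 461 CPM only in the highest 1-week band, whereas *Pdx1* passed its WT level of 114 CPM in every band.

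Genes of beta cell maturity split. Of 13 ranked genes 2 were at least 2-fold lower at 5 weeks and 3 higher, with a median of 0.44. *Slc2a2* (GLUT2), the glucose transporter of mouse beta cells on chromosome 3 from 28697903 to 28728361, stood at 726 CPM in WT, 49.3 CPM at 1 week and 8.22 CPM at 5 weeks. Its log2 ratio of 5 weeks over 1 week was -2.58 (-3.03 to -2.16). *Ucn3*, a peptide of mature beta cells, stood at 459.8 CPM in WT, 78 CPM at 1 week and 27.4 CPM at 5 weeks, with -1.51 (-1.76 to -1.27), and in cells of 3000 to 10000 UMIs its ratio was -0.69. *G6pc2*, a glucose-6-phosphatase of beta cells, was also far below WT at both times but was higher at 5 weeks than at 1 week (1719 CPM in WT, 162 CPM at 1 week and 529.9 CPM at 5 weeks). That difference was 1.71 log2 units in all cells and 0.49 with *Ins2* at 40% or more in both libraries. *Spc25* was higher (525 CPM in WT, 395 CPM at 1 week and 1192 CPM at 5 weeks). *Rbp4* was higher too (252 CPM in WT, 24.8 CPM at 1 week and 189 CPM at 5 weeks). It is also a marker of delta cells, and stood at 2631 CPM at 1 week and 1854 CPM at 5 weeks in alpha cells. *Prlr*, the prolactin receptor, and *Ppp1r1a*, a phosphatase inhibitor, stayed below WT at both times. *Prlr* stood at 1425 CPM in WT, 195 CPM at 1 week and 304 CPM at 5 weeks. *Ppp1r1a* stood at 1587 CPM in WT, 589.8 CPM at 1 week and 648 CPM at 5 weeks. *Ero1lb*, an oxidase of proinsulin folding, stood at 1523 CPM in WT, 671 CPM at 1 week and 1150.5 CPM at 5 weeks.

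The bands split the cells of the same libraries and are not replicates of the comparison. Within them *Slc2a2* was lower in each 5-week band than in any 1-week band. It stood at 21.4 (16.5 to 27.3), 39.4 (32.1 to 47.9) and 92.1 (80.7 to 105) CPM in the 1-week bands of increasing *Ins2*, and at 7.08 (3.66 to 12.4) and 8.64 (6.17 to 11.8) CPM in the 5-week bands. No 1-week band reached down to the 5-week values. In alpha cells, which normally lack the transporter, it was at 1.18 CPM at 1 week and 1.28 CPM at 5 weeks. *Ins1*, the first insulin gene, made up 25.8% of the UMIs of both insulins in WT, 7.19% at 1 week and 3.92% at 5 weeks. These shares pool all selected cells, and their denominator includes *Ins2*, the gated transcript. Cell by cell the mutant libraries ranked the other way. The median share of *Ins1* among all UMIs of a 1-week cell, 0.548% (upper quartile 2.48%), lay below the 5-week median of 2.06%. Both medians were far under the 15.2% of WT cells, and the order of the mutant libraries depends on the measure.

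**Figure D3:**
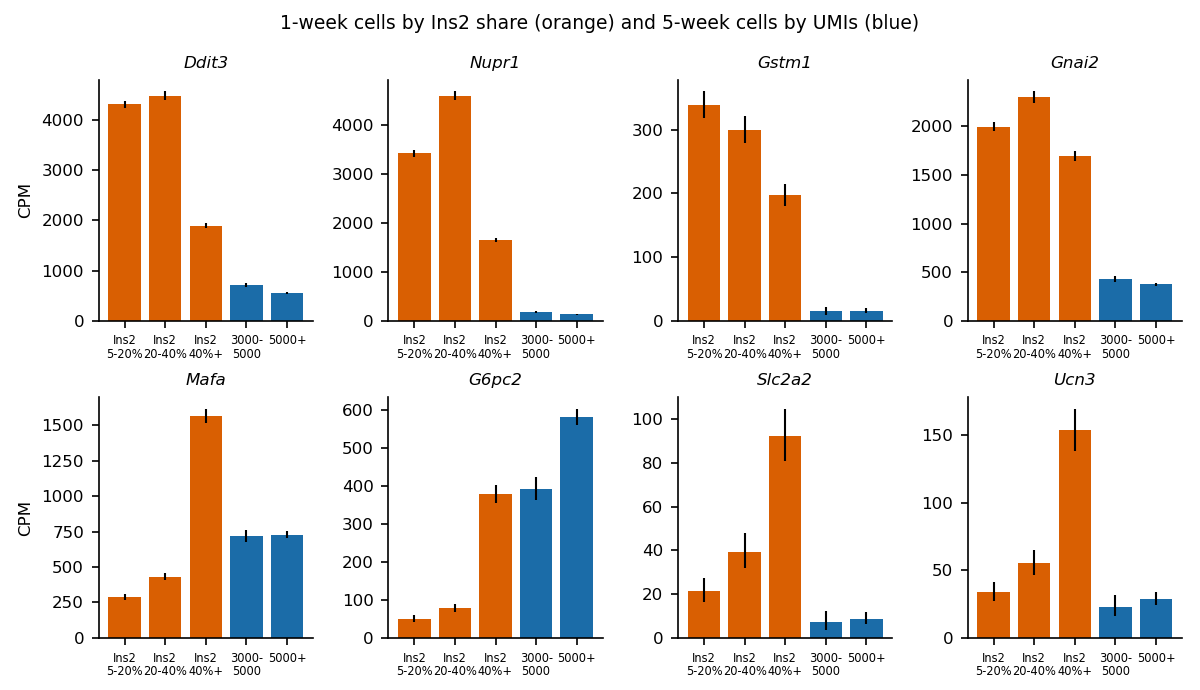
Levels in CPM (bars from 0, with exact Poisson 95% intervals) of 8 genes in the 1-week cells split by the share of *Ins2* in their UMIs (orange) and in the 5-week cells split by UMIs per cell (blue). *Mafa*, *G6pc2*, *Slc2a2* and *Ucn3* climb with *Ins2* at 1 week, and *Slc2a2* and *Ucn3* are lower in both 5-week bands than in any 1-week band.

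Among genes of glucose sensing *Mlxipl* (ChREBP), the factor that carries glucose signals to lipogenic genes, was lower at 5 weeks (151 CPM in WT, 215 CPM at 1 week and 53.1 CPM at 5 weeks). *Txnip*, a thioredoxin inhibitor that ChREBP induces, was higher (259 CPM in WT, 69.6 CPM at 1 week and 789 CPM at 5 weeks). These 2 and *Slc2a2* and *G6pc2* were those past 2-fold of 11 ranked, and the list's median was -0.43. Beside the counts of this list and of those that follow, the shares over all ranked genes were 5.33% higher and 7.52% lower. Of 13 ranked genes of stimulus-secretion coupling 1 passed, a share near that over all ranked genes. It was the fatty acid receptor *Ffar1*, lower at 5 weeks (81.9 CPM in WT, 34.9 CPM at 1 week and 10.9 CPM at 5 weeks). The KATP channel genes *Kcnj11* (-0.71) and *Abcc8* (-0.08) lay within 2-fold. The zinc transporter *Slc30a8* stood at 996 CPM in WT, 339.7 CPM at 1 week and 189.6 CPM at 5 weeks. Of 13 ranked exocytosis genes *Cplx2*, a complexin (73.3 CPM in WT, 182 CPM at 1 week and 51.1 CPM at 5 weeks), and *Syt7*, a calcium sensor of granule fusion (69.5 CPM in WT, 220.1 CPM at 1 week and 92.7 CPM at 5 weeks), were lower and none was higher. Of 5 ranked genes of prohormone processing *Prss53* was lower (569 CPM in WT, 284 CPM at 1 week and 113 CPM at 5 weeks), and *Pcsk1* and *Pcsk2*, the convertases of proinsulin, lay within 2-fold (0.75 and 0.04). Of 10 ranked granule genes *Vgf*, a granin-like protein, was higher (13.3 CPM in WT, 73.2 CPM at 1 week and 172 CPM at 5 weeks), and none was lower. *Vgf* lay within 2-fold with *Ins2* at 20% or more in every library (0.91).

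Genes of other islet cells gave few ranked members. Among 5 alpha genes *Ttr*, a carrier of thyroid hormone and retinol that alpha cells make in bulk, was higher at 5 weeks (3113 CPM in WT, 174 CPM at 1 week and 2221 CPM at 5 weeks, with 9543 CPM at 1 week and 32988 CPM at 5 weeks in alpha cells) and *Tmem27* lower (-1.09). Among 2 delta genes *Rbp4* was higher and *Fam159b* lower (-1.39), and the 1 PP gene, *Tmem176a*, lay within 2-fold. None of the 19 disallowed or dedifferentiation genes, which beta cells normally keep off, reached a mean of 20 CPM over the 2 mutant libraries. *Fabp3* of this list stood at 30.5 CPM in WT, 7.67 CPM at 1 week and 18.7 CPM at 5 weeks.

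Among housekeeping groups the shares past 2-fold are read against 5.33% higher and 7.52% lower over all ranked genes. Of 82 ranked cytosolic ribosomal protein genes 14 were at least 2-fold lower and 0 higher, with a median of -0.48, among them *Rpl10* (1504 CPM in WT, 3843 CPM at 1 week and 1236 CPM at 5 weeks). *Rpl13a* had the lowest ratio (-2.05) and has near-identical copies. Of 88 nuclear genes of oxidative phosphorylation 4 were higher (*Ndufa4* at 1.31, *Atp5g3* at 1.22, *Ndufa1* and *Atp5g1*) and 3 lower (*Cox7a2l* at -1.34, *Ndufa6* and *Ndufa9*), with a median of 0.31, shares below those over all ranked genes in both directions. With all genes in the totals the medians of these 2 groups were -1.40 and -0.62. The 37 proteasome genes had a median of 0.12 with 1 lower, *Psmb8*. The 10 ranked subunits of TFIID other than Taf4 had 0 higher, 0 lower and a median of 0.01, from *Taf3* at -0.93 to *Taf7* at 0.65.

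Of 13 genes of cholesterol and fatty acid synthesis 5 were higher and none lower, with a median of 0.78 (-0.14 with all genes in the totals), among them *Idi1* (1.94), *Scd2* (97.1 CPM in WT, 9.41 CPM at 1 week and 35.1 CPM at 5 weeks), *Insig1* and *Hmgcs1*. *Hmgcs1* lay within 2-fold in cells of 3000 to 10000 UMIs (0.88). Of 9 cytoskeletal genes 5 were higher, with a median of 1.20, among them the tubulins *Tuba1a* (101 CPM in WT, 76.9 CPM at 1 week and 209.7 CPM at 5 weeks), *Tubb2a* and *Tubb3* and the thymosins *Tmsb4x* (2449 CPM in WT, 568 CPM at 1 week and 1509.9 CPM at 5 weeks) and *Tmsb10*. With *Ins2* at 40% or more in both libraries *Tubb3* (0.53), *Tubb2a* (0.83) and *Tmsb4x* (0.95) lay within 2-fold. Of 12 antigen presentation genes 5 were lower and none higher, with a median of -0.80, from *Tapbp*, tapasin (52.4 CPM in WT, 96.5 CPM at 1 week and 24.8 CPM at 5 weeks), to *Tap2* (-1.04). Of 14 genes of glycolysis and hypoxia 4 were lower and 1 higher, with a median of -0.56. Of the 4, *Pfkl*, a phosphofructokinase, was -1.07 in all cells and 0.68 in cells of 3000 to 10000 UMIs, the opposite direction. *Gpi1*, the isomerase of glucose phosphate, stood at 61.9 CPM in WT, 246 CPM at 1 week and 87.1 CPM at 5 weeks. Among 12 adhesion genes *Cldn4* (36.2 CPM in WT, 92.5 CPM at 1 week and 20.9 CPM at 5 weeks) and *Krt7* were lower and *Krt8*, a keratin, higher (196 CPM in WT, 208 CPM at 1 week and 550.1 CPM at 5 weeks). Of 4 ranked cell cycle genes *Ccnd1* was higher (147 CPM in WT, 60.8 CPM at 1 week and 178 CPM at 5 weeks). Of 6 long non-coding RNAs *Kcnq1ot1* (-1.04) and *Snhg11* (-1.10) were lower. Of 5 genes of inflammation and the acute phase *Stat3* was lower (-1.11), and *Reg1*, which acinar cells make, was higher (414 CPM in WT, 0.248 CPM at 1 week and 48.4 CPM at 5 weeks).

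To say what was early, late, transient or lasting, both mutant levels were set against WT for the 6623 genes with a mean of at least 20 CPM over the 3 libraries. The median log2 ratio to WT was 0.20 at 1 week and 0.08 at 5 weeks. A gene was called lasting when it was at least 2-fold from WT in the same direction at both times. It was transient when it passed at 1 week and was within 0.5 log2 units of WT at 5 weeks, and partly restored between those limits. It was late when it passed at 5 weeks and was within 0.5 units of WT at 1 week. It was progressive when it passed at 5 weeks and was already 0.5 to 1 units off in the same direction at 1 week. It was opposed when it lay at least 0.5 units off WT on opposite sides, with at least 1 of the 2 ratios past 1 unit. The 2 ratios share the WT library, so genes of an unusual WT level fall into the lasting classes. By this rule 268 genes were lastingly up and 177 lastingly down, 332 were transiently up and 176 transiently down, and 413 and 169 were partly restored. Late changes were fewer, 55 up and 66 down, with 57 and 61 progressive. Opposed genes numbered 31 (up at 1 week) and 55 (down at 1 week), and 4763 genes (71.9%) were in no class.

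The lasting classes were led by sex-linked transcripts, which follow the mismatch of the WT library with its label. *Eif2s3y* and *Ddx3y*, on chromosome Y, led the genes that were up, with no UMI in WT, and *Xist* led those that were down. The ribosomal repeat transcripts *AY036118* (5.71 CPM in WT, 105 CPM at 1 week and 278 CPM at 5 weeks) and *Gm42418* (605 CPM in WT, 4786 CPM at 1 week and 4795 CPM at 5 weeks) followed. *Lars2*, a mitochondrial leucyl-tRNA synthetase gene, stood at 11.4 CPM in WT, 84.2 CPM at 1 week and 134 CPM at 5 weeks, and *Cdkn1a*, described above, was the remaining one of the first 6. Of the 177 genes lastingly down 13 were acinar markers. *Klk1*, a kallikrein of exocrine cells, was at 94.2 CPM in WT and had 0 UMIs at 1 week. *Npy*, a neuropeptide, stood at 449 CPM in WT, 7.55 CPM at 1 week and 8.38 CPM at 5 weeks. *Trpm5*, a cation channel that amplifies insulin secretion, stood at 13 CPM at 1 week and 5.06 CPM at 5 weeks, with 524 CPM in WT. The other leaders were *Defb1*, a defensin (584 CPM in WT, 21.4 CPM at 1 week and 20.7 CPM at 5 weeks), and *Fmo1*, a monooxygenase. All 4 were below WT in both mutant libraries, and *Trpm5* was lower still at 5 weeks, with a log2 ratio of -1.36 (-1.98 to -0.78), and -0.91 in cells of 3000 to 10000 UMIs.

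Genes transiently up were led by *Stbd1*, a glycogen-binding protein, which had no UMI in WT, 112 CPM at 1 week and 3.48 CPM at 5 weeks, and by *Flrt1*, *Gstp1*, *Mgat4b*, *Atf5* and *Hspa9*. Partly restored genes that were up were led by *Trib3*, *Smad7*, an inhibitor of TGF-beta signals (8.57 CPM in WT, 87 CPM at 1 week and 13.6 CPM at 5 weeks), *Gadd45a*, *Id2*, *Cyb5r1* (13.3 CPM in WT, 101 CPM at 1 week and 22.5 CPM at 5 weeks) and *Htatip2*. Of the 332 genes transiently up 177 were also at least 2-fold lower at 5 weeks than at 1 week. Genes transiently down were led by *Klf2*, *Ttr*, *Rbp4*, *Derl3*, *Ssr4*, a subunit of the translocon-associated complex (3753 CPM in WT, 605 CPM at 1 week and 2691 CPM at 5 weeks), and *Fam46a*. Partly restored genes that were down were led by *Fkbp11*, *Mir670hg*, *Etv1*, *Gm5860* and *Mt3*. The alpha cell levels of *Ttr* and *Rbp4* are given above.

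Late genes were near WT at 1 week and off it at 5 weeks. Those that were down were led by *Fam151a*, then *Dcaf12l1* (85.7 CPM in WT, 71.5 CPM at 1 week and 16.4 CPM at 5 weeks), *Ctso*, a cathepsin (66.6 CPM in WT, 57.7 CPM at 1 week and 14.5 CPM at 5 weeks), *Abhd17c*, *Lpl*, lipoprotein lipase (142 CPM in WT, 109 CPM at 1 week and 39.5 CPM at 5 weeks), and *Gpx2*, a glutathione peroxidase (67.6 CPM in WT, 74.1 CPM at 1 week and 19.1 CPM at 5 weeks). Their 5-week levels were the lowest of the 3 libraries. Those that were up were led by the histone gene *Hist1h4h* (44.7 CPM in WT, 48 CPM at 1 week and 158 CPM at 5 weeks), which shares its coding sequence with other H4 genes, *Hapln4*, a link protein of the extracellular matrix (32.4 CPM in WT, 33 CPM at 1 week and 109.6 CPM at 5 weeks), *Ier3*, *Gm17586*, *Tiparp*, an ADP-ribosyltransferase (23.8 CPM in WT, 23.6 CPM at 1 week and 78.9 CPM at 5 weeks), and *Hspa8*. Progressive genes that were up were led by *Ddit4*, *Herpud1*, *Tubb3*, *Hexim1*, an inhibitor of P-TEFb (27.6 CPM in WT, 47.9 CPM at 1 week and 87.4 CPM at 5 weeks), *Ciapin1* and *Trmt10c*, and those that were down by *Dpysl2* (174 CPM in WT, 90.9 CPM at 1 week and 37.9 CPM at 5 weeks), *Ogdhl*, *Svil*, *Fmnl2*, *Gpr27* and *Slc38a4*, an amino acid transporter (141 CPM in WT, 87.8 CPM at 1 week and 41.6 CPM at 5 weeks). Opposed genes that were up at 1 week and below WT at 5 weeks were led by *Nupr1*, *Gstm1*, *Rasgef1b* (11.4 CPM in WT, 53.5 CPM at 1 week and 3.79 CPM at 5 weeks), *Lmo1*, a LIM-only cofactor (20.9 CPM in WT, 44.1 CPM at 1 week and 3.64 CPM at 5 weeks), *Ugt2b34* and *Mreg*. Those that were down at 1 week and above WT at 5 weeks were led by *Npas4*, a neuronal activity factor with 1 UMI at 1 week, *Fosb*, *Fos*, *Hspb1*, *Tcim* and *Nr4a1*.

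**Figure D4:**
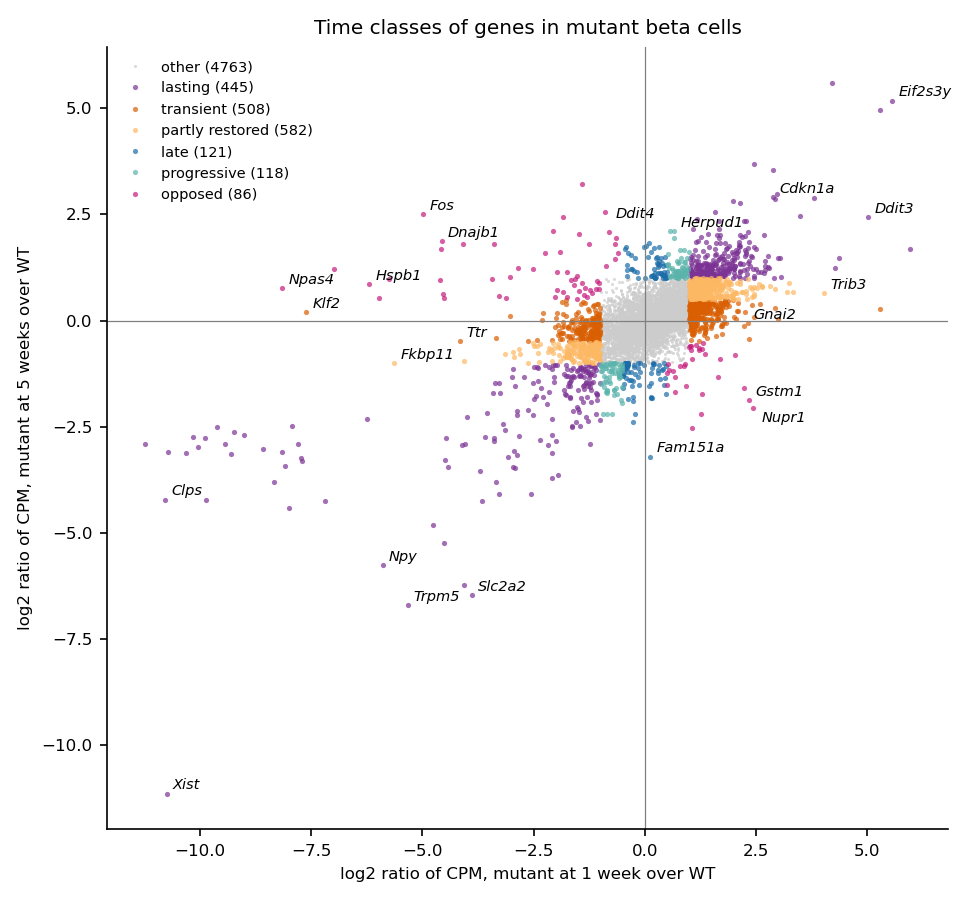
Log2 ratio of CPM of the mutant over WT at 1 week (x axis) and at 5 weeks (y axis) for 6623 genes in selected beta cells, coloured by time class, with a count of 0 taken as 3 UMIs. *Ddit3* and *Cdkn1a* lie high at both times, *Trib3* and *Gnai2* high at 1 week and within 1 unit of WT at 5 weeks, *Slc2a2* and *Trpm5* low at both, *Fam151a* low at 5 weeks only, and *Fos* and *Hspb1* low at 1 week and high at 5 weeks.

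The same ratios were set beside those of the alpha cells of the same 2 libraries. Of the 6699 ranked genes 5738 had a mean of at least 20 CPM in alpha cells, and their median log2 ratio there was -0.10. Of the 297 genes higher in beta cells that had an alpha value, 216 were at least 2-fold higher in alpha cells too and 0 were lower past 2-fold, beside 555 of all 5738 higher and 603 lower in alpha cells. Of the 426 genes lower in beta cells 236 were also at least 2-fold lower in alpha cells and 11 were higher. *Gstm1* (322 CPM at 1 week and 4.68 CPM at 5 weeks) and *Atf5* (568 CPM at 1 week and 15.3 CPM at 5 weeks) were among the shared ones, with log2 ratios in alpha cells of -6.10 and -5.21. *Gnai2* was not: it stood at 292 CPM at 1 week and 346 CPM at 5 weeks in alpha cells. Its log2 ratio was 0.24 (0.10 to 0.39) there and -2.36 (-2.43 to -2.30) in beta cells, and these intervals do not overlap. *Fkbp11* stood at 13.8 CPM at 1 week and 48.5 CPM at 5 weeks in alpha cells. Its log2 ratio was 1.81 (1.25 to 2.40) there and 4.65 (4.35 to 4.96) in beta cells. Beta cell genes such as *Slc2a2* and *Fam151a* had too little RNA in alpha cells to be compared. Differences between the cell types were not tested, since each rests on 1 library a side.

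**Figure D5:**
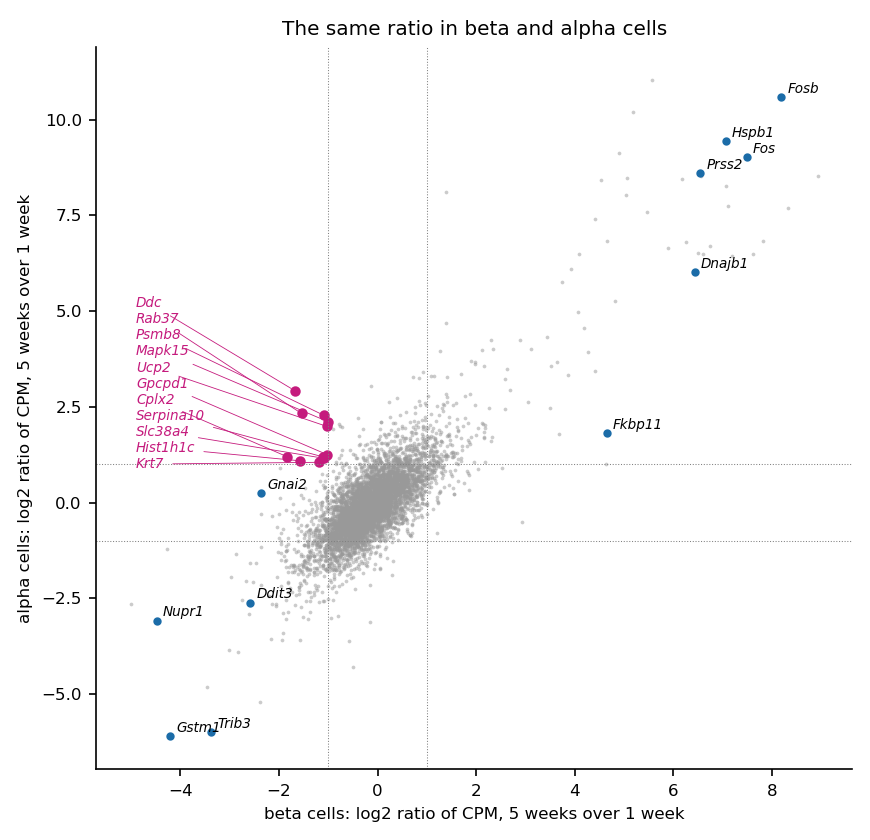
Log2 ratio of CPM, 5 weeks over 1 week, in mutant beta cells (x axis) and in alpha cells of the same libraries (y axis) for 5738 genes (grey). Blue points are genes named in the text and pink points the 11 genes at least 2-fold lower in beta cells and at least 2-fold higher in alpha cells; dotted lines mark 2-fold, and *Gnai2* is low in beta cells with an alpha ratio of 0.24.

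The share of cells with at least 1 UMI was compared at equal depth. Each cell was thinned to 1000 UMIs outside hormones and mitochondrial transcripts, which left 559 cells at 1 week (3 left out) and 2872 at 5 weeks (529 left out), and in alpha cells 173 (0 left out) and 874 (1419 left out). *Ddit3* was then found in 72.6% (68.7% to 76.3%) of beta cells at 1 week and 39.3% (37.5% to 41.1%) at 5 weeks, and before thinning in 94.3% and 57.3% of the same cells. *Nupr1* went from 53.1% to 10.9%, *Gnai2* from 80.5% to 31.8% and *Mlxipl* from 22.5% to 4.53%. The other way, *Fos* went from 1.43% (0.62% to 2.80%) to 82.4% (81% to 83.8%), *Dnajb1* from 1.97% to 67.3% and *Herpud1* from 43.3% to 73.5%. In alpha cells *Gnai2* was found in 22% and 28% and *Herpud1* in 26.6% and 30.7%.

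*Mafa* was found in 30.9% and 48.2% of thinned beta cells and *G6pc2* in 11.3% and 36.2%, though the summed level of *Mafa* was even, so no order is read for it. *Slc2a2* was found in 5.01% (3.35% to 7.16%) at 1 week and 0.766% (0.481% to 1.16%) at 5 weeks, and *Ucn3* in 8.59% and 2.44%. Alpha cells, which normally lack both, had neither at 1 week in 173 cells, with an upper bound of 2.11%. At 5 weeks they held *Slc2a2* in 0.114% (0.0029% to 0.636%) of cells and *Ucn3* in none, with an upper bound of 0.421%. The 5-week intervals of *Slc2a2* in beta and alpha cells overlap. Before thinning, *Slc2a2* was found in 34% and 1.53% of these beta cells and in 1.73% and 0.114% of the alpha cells. The full sets had median depths of 24754.5 and 5536 UMIs in beta cells and 21515 and 1914 UMIs in alpha cells.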

How the data were processed

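Single-cell RNA-seq libraries (10X Genomics Chromium 3′) of islets from WT mice and from mutants 1 week and 5 weeks after Taf4 inactivation were used, 1 library each. By the study's methods, the authors aligned to mm10 and counted UMIs with Cell Ranger 3.1 and worked in Seurat 3.1.4, and the submitters' processing notes also name bcl2fastq 2.17.1.14. The deposited tables hold raw UMI counts per gene and barcode. The study's methods also state limits on detected genes and mitochondrial share for the cells analysed, and the barcodes listed at 1 week pass beyond those limits. Doublet removal and a reduction to 12000 barcodes are stated for WT only, and no doublet caller was run here.

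UMIs were summed over the selected cells and scaled to CPM without Ins1, Ins2, Gcg, Sst, Ppy, Pyy, Iapp and mt- genes. A gene missing from a table counted as 0, and counts of 0 entered ratios as 3. Intervals of ratios were exact conditional binomial, of levels exact Poisson and of shares Clopper-Pearson. Genes were ranked at a mean of 20 CPM. Named were the 12 highest and 12 lowest ratios at 100 CPM or more, 6 leaders of each time class, and list members. A few genes that these rules name are not reported here. The members and lists were chosen with earlier results of these data known. The steps were tested on simulated data (Python 3.11.15, numpy 2.4.6, scipy 1.17.1, pandas 2.3.3, matplotlib 3.10.9). Alternatives changed the gates, depth, weighting, totals, centring and level filter. The reference genome given, of another build, was not used, and coordinates and promoters are from RefSeq on GRCm38.p6.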

Additional observations from a re-analysis of the deposited data

Results flagged for a closer look

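Of the 426 genes at least 2-fold lower at 5 weeks in mutant beta cells that had an alpha value, 11 were at least 2-fold higher in alpha cells. Over all 5738 genes with an alpha value 555 were at least 2-fold higher there, a larger share. The 11 were singled out because the 2 cell types differed in opposite directions, with 1 library a side. The difference between the cell types was not tested.

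*Ddc*, the decarboxylase that makes dopamine and serotonin, stood at 87.9 CPM at 1 week and 27.4 CPM at 5 weeks in beta cells and at 16.2 CPM at 1 week and 123 CPM at 5 weeks in alpha cells, log2 ratios of -1.68 and 2.92. *Rab37*, a small GTPase of secretory granules, stood at 91.7 CPM at 1 week and 31.5 CPM at 5 weeks in beta cells and at 20.5 CPM at 1 week and 103 CPM at 5 weeks in alpha cells (-1.54 and 2.33). *Cplx2*, a complexin of granule fusion, stood at 182 CPM at 1 week and 51.1 CPM at 5 weeks in beta cells and at 84.9 CPM at 1 week and 194 CPM at 5 weeks in alpha cells (-1.83 and 1.20). *Ucp2*, a mitochondrial carrier, stood at 35.9 CPM at 1 week and 17.6 CPM at 5 weeks in beta cells and at 47.8 CPM at 1 week and 189.7 CPM at 5 weeks in alpha cells (-1.03 and 1.99). In WT alpha cells, taken by the same gate, *Ddc* stood at 91.1 CPM, *Rab37* at 101 CPM, *Cplx2* at 127 CPM and *Ucp2* at 199 CPM. In alpha cells the 1-week level of each was thus the lowest of the 3 libraries.

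For *Psmb8*, a subunit of the immunoproteasome, the log2 ratio was -1.09 in beta cells and 2.28 in alpha cells, and -0.53 in beta cells thinned to 3000 UMIs each. For the kinase *Mapk15* the ratios were -1.01 and 2.12, for the linker histone *Hist1h1c* -1.57 and 1.09, and for the keratin *Krt7* -1.19 and 1.05. For the phosphodiesterase *Gpcpd1* they were -1.03 and 1.25, for the serpin *Serpina10* -1.10 and 1.19, and for the amino acid transporter *Slc38a4* -1.08 and 1.15. In alpha cells the 1-week level of these genes was again the lowest of the 3 libraries, except for *Gpcpd1* (16.8 CPM in WT and 20.5 CPM at 1 week).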

How the results depend on the processing

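Against 357 higher and 504 lower genes, cells of 3000 to 10000 UMIs (85 at 1 week, 2841 at 5 weeks) gave 832 and 952, totals that include hormones and mitochondrial transcripts gave 47 and 2072 (median log2 ratio -1.06), a mean of at least 5 CPM gave 584 and 871, and at least 100 CPM gave 163 and 124. The other alternatives stayed within 1.5 times of both counts, from 254 to 499 higher and from 336 to 624 lower. Of 181 named genes and list members past 2-fold, between 0 and 39 were within 2-fold under an alternative that kept the level filter, most with all genes in the totals (39), with *Ins2* at 40% or more (27) and in cells of 3000 to 10000 UMIs (24). In those cells *Pfkl* (0.68) was reversed. *Klk1* had 0 UMIs at 1 week, so its change of sign there (-0.60) comes only from entering 0 as 3 UMIs. The cause of these differences was not tested.

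Lasting up (268) became 171 with all genes in the totals, 625 at 5 CPM and 44 at 100 CPM, and lasting down (177) became 42, 388 and 64. Transient or partly restored up (745) became 1580, 1142 and 167 under the same alternatives and 464 with centred ratios, and down (345) became 19, 525, 157 and 533, and 730 in cells of 3000 to 10000 UMIs. Late or progressive up (112) became 17, 238 and 28, and down (127) became 72, 295 and 26. Opposed genes up at 1 week (31) became 104, 66 and 6, 20 with centred ratios, 52 in cells of 3000 to 10000 UMIs, 47 with each cell thinned to 3000 UMIs and 16 with *Ins2* at 40% or more, a setting chosen after the data were seen. Opposed genes down at 1 week (55) became 19 with all genes in the totals, 28 at 100 CPM and 97 in cells of 3000 to 10000 UMIs.

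No paired analysis was possible because each condition has 1 library, and leaving out a replicate was not possible. The WT sum was the shallowest, with 1 UMI worth 0.952 CPM.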
